A study of Mus musculus with 20 samples.

Results

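The core genes of the circadian clock were measured in the hippocampus of aged mice that carry human APOE3 or APOE4. The 10 genes chosen by name were the activators Arntl and Clock, the repressors Per1, Per2, Per3, Cry1, Cry2, Nr1d1 and Ciart, and the output gene Dbp, out of 33119 genes in the count table. All 10 were among the 21724 genes that passed the filter on low counts, with between 386 and 7037 counts per mouse. Hippocampal RNA came from 20 mice on the C57BL/6 strain background, aged 16 months, with 5 mice in each of 4 groups. hAPOE3 males (S154 to S158) and hAPOE3 females (S144 to S148) were homozygous for targeted replacement of the mouse gene by human APOE3, and hAPOE4 males (S174 to S178) and hAPOE4 females (S164 to S168) were homozygous for human APOE4. No group kept the mouse gene or had a treatment, so that the labels of the groups compared differ in the human allele or in sex. Any difference between the groups in breeding, cohort or handling could not be told apart from genotype or sex. The brains were perfused with buffered saline before dissection. The sources used here give no hour of collection and no lighting schedule.

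In mammalian cells the proteins of Arntl, also called BMAL1, and Clock bind as a pair to E-box sequences and switch on the Per and Cry genes, whose proteins return to block that pair, so that the loop takes about a day. Nr1d1, also called REV-ERBα, is switched on by the same pair and represses Arntl through ROR elements, which puts Arntl nearly opposite in phase to Nr1d1 and Dbp. Dbp, a D-box binding transcription factor, and Ciart, also called CHRONO, are direct targets of the pair and swing widely over the day in most tissues. The hippocampus holds such rhythms, so that the hour at which a mouse is killed sets much of the level of these genes.

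Dbp and Ciart fell in hAPOE4 mice, and the 8 other clock genes had no difference past the threshold. Over both sexes, Dbp was at 55.6 CPM (counts scaled to library size by the TMM method) in the 10 hAPOE4 mice and 76.2 in the 10 hAPOE3 mice, a log2 difference of -0.45 (SE 0.09, 95% interval -0.63 to -0.26). Ciart was at 13.0 CPM in hAPOE4 mice and 18.4 in hAPOE3 mice, a log2 difference of -0.50 (SE 0.12, interval -0.75 to -0.25). These are falls to 0.733 and 0.709 of the hAPOE3 level, with adjusted p = 0.00805 for Dbp and 0.0323 for Ciart by edgeR's quasi-likelihood test with Benjamini-Hochberg adjustment over all genes tested, at a threshold of 0.05. Of all genes tested, 2.45% passed in this comparison and 1.74% passed and were lower, against 2 of the 10 clock genes. At an unadjusted p under 0.05 were 17.9% of all genes and 3 of the 10. Both calls were lost without hAPOE4 males S175 to S178, whose libraries stand apart, with differences of -0.49 for Dbp (adjusted p = 0.178) and -0.60 for Ciart (adjusted p = 0.266). The activator Arntl was at 24.8 CPM in hAPOE4 mice and 25.6 in hAPOE3 mice, with a difference of -0.05 (interval -0.18 to 0.08).

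The start-site windows of 4 genes are printed because they hold the sequences through which these genes are known to be linked, or lack them in the case of Dbp. Each runs from 250 bases before to 50 bases after a RefSeq transcript start on GRCm38.p6, 5′ to 3′ on the gene's strand, with matched motifs in capitals. The motifs searched, on both strands, were the E-box CACGTG, the variant E-box CACGTT, the D-box TTANGTAA, the ROR element GTAGGTNA and the cyclic AMP element TGACGTCA, of which none contains another, although they can overlap in part.

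Ciart (chr3:95882179-95882478, minus strand): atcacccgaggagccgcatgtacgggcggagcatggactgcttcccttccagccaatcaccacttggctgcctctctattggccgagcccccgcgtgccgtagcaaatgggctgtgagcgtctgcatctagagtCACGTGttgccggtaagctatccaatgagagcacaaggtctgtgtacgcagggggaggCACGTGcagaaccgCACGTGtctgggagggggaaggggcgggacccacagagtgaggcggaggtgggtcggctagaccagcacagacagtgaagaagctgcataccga

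Dbp (chr7:45704997-45705296, plus strand): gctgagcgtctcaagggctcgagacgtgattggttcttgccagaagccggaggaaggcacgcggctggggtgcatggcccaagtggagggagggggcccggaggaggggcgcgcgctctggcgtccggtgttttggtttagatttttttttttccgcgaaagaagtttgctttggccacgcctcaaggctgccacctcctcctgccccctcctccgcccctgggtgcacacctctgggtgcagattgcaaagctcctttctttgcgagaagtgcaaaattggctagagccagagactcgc

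Per3 (chr4:151044616-151044915, minus strand): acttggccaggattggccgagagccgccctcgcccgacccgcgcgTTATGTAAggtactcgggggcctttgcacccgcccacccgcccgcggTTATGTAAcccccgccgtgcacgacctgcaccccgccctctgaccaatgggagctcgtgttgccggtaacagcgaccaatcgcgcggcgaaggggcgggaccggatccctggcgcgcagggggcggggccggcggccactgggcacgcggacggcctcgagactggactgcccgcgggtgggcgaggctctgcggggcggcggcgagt

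Arntl (chr7:113207215-113207514, plus strand): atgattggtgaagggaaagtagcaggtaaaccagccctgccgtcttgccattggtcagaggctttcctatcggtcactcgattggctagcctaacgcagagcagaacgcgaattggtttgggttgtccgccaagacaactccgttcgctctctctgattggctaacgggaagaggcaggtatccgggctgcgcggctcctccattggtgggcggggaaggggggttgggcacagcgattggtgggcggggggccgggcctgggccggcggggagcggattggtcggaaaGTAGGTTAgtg

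The window of Ciart held 3 E-boxes, at -116, -58 and -44 from the start, whereas 7.15% of all 32851 RefSeq windows of this length held at least 1. The window of Per3 held 2 D-boxes (2.32% of all windows held 1 or more), and that of Arntl held 1 ROR element (2.14%). Per1 had 1 E-box at -166, Cry1 had 1 E-box at -60 and 1 variant E-box at -79, and Cry2 and Nr1d1 had 1 variant E-box each (4.68% of all windows). The windows of Dbp and Clock held none of the 5 motifs, which says only that these letters are not in those windows. Windows were matched for 9 of the 10 genes. Arntl and Per1 had 2 windows each and Clock had 3, and the window nearest the annotated gene start was used. The other window of Arntl, with its start 46 bases from the annotated gene start, held 2 ROR elements. The other window of Per1 held 0 E-boxes, and the start used for Per1 lies 3732 bases from its annotated gene start. Per2 had no entry.

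The 20 libraries held between 35778879 and 52520279 counts. Xist and Ddx3y separated the sexes as labelled in all 20 mice, but Xist was at 19.3 to 28.4 CPM in hAPOE4 males S175 to S178 and at 3.95 to 7.50 in the other 6 males. Mouse Apoe, of which only parts outside the replaced coding sequence can still be counted, was at 59.4 CPM in hAPOE3 and 71.0 in hAPOE4 mice (adjusted p = 0.253 by edgeR). Markers of regions next to the hippocampus varied widely. The summed level of 12 choroid plexus markers ran from 93.3 to 6715 CPM over the mice, that of 8 striatal neuron markers from 137 to 738 CPM and that of 7 thalamic neuron markers from 78.3 to 574 CPM, with 1 thalamic marker at 0 in at least 1 female. The 8 hippocampal neuron markers used as a check of the tissue summed to between 912 and 1986 CPM, with 0 of the 8 at 0 in any mouse. A lower level in such tissue may come from fewer cells of a type or from less RNA per cell, and these cannot be told apart.

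**Figure D1:**
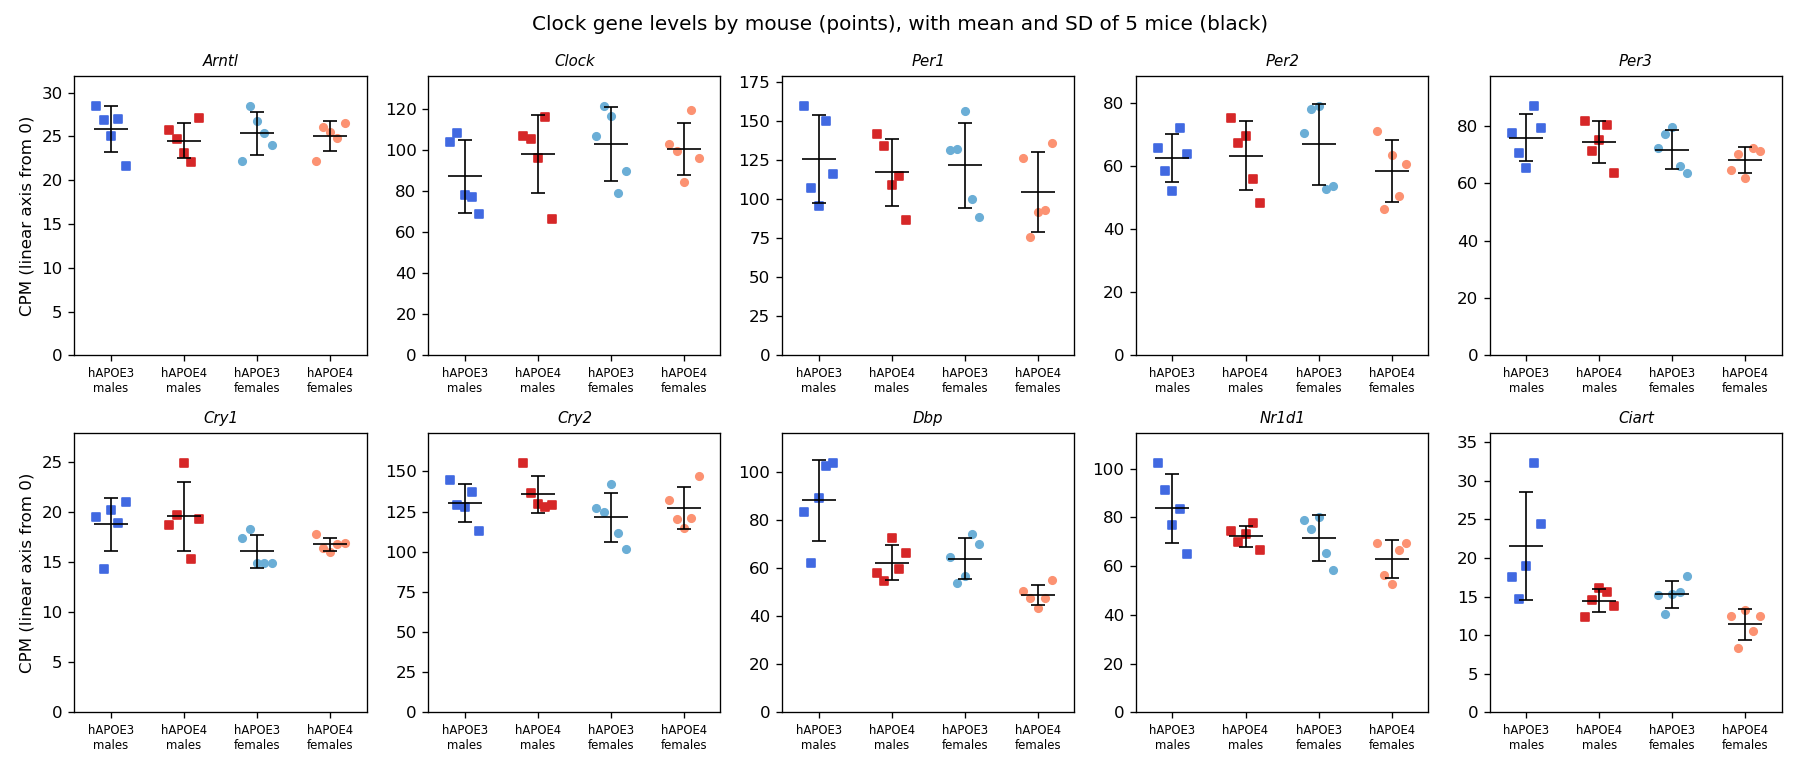
CPM (linear axis from 0) of the 10 clock genes, with 1 point per mouse (squares, males; circles, females) and the mean and SD of 5 mice in black, by group. Dbp has group means of 88.3, 62.3, 64.0 and 48.8 CPM from left to right, while the 4 means of Arntl lie between 24.5 and 25.8 CPM.

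Among the activators, Arntl had the narrowest range of the 10 clock genes across mice, with a highest value 1.32 times the lowest. Arntl (chromosome 7, 113207465 to 113314126, plus strand, GRCm38) was at 28.5, 26.9, 25.0, 27.0 and 21.6 CPM in hAPOE3 males and at 25.7, 24.7, 23.1, 22.0 and 27.1 CPM in hAPOE4 males, in order of mouse number. It was at 22.2, 28.5, 26.8, 25.3 and 24.0 CPM in hAPOE3 females and at 22.2, 26.0, 25.5, 24.8 and 26.5 CPM in hAPOE4 females. All 4 groups lay over the same range. The log2 difference of hAPOE4 and hAPOE3 mice was -0.07 in males (interval -0.26 to 0.11) and -0.02 in females (-0.21 to 0.17), and females differed from males by 0.00 (-0.13 to 0.13, mean over both genotypes). Its biological coefficient of variation, the spread between mice of the same group left after counting noise, was 11.0%. Of all genes 9.28% had a lower one, with Per3 slightly below it at 10.9%.

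Clock, the histone acetyltransferase that pairs with the Arntl protein, varied more, from 66.5 CPM in hAPOE4 male S178 to 122 CPM in hAPOE3 female S145. Its group means were 87.3 ± 17.7 (SD, n = 5) in hAPOE3 and 98.2 ± 19.1 in hAPOE4 mice among males, and 103 ± 18.0 in hAPOE3 and 101 ± 12.7 in hAPOE4 mice among females. The genotypes differed by 0.07 on the log2 scale (interval -0.16 to 0.30) and the sexes by 0.14 (-0.09 to 0.36), so that a difference of the size seen in Dbp lay outside both intervals. The 3 hAPOE3 males with the least Clock, S156 to S158 at 78.3, 77.0 and 68.7 CPM, were the 3 with the most Dbp. They were also the 3 hAPOE3 males with the highest oxidative phosphorylation score, given further on.

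Of the Period genes, which encode the rhythmic partners of the CRY proteins and respond quickly to light, stress hormone and activity, none differed past the threshold. Per1 was at 126 ± 27.9 CPM in hAPOE3 and 117 ± 21.5 in hAPOE4 mice among males, and at 122 ± 27.2 in hAPOE3 and 104 ± 25.4 in hAPOE4 mice among females. It had the highest biological coefficient of variation of the 10 genes, at 20.8%, and the genotype interval ran from -0.43 to 0.11. Over all 20 mice, group differences included, the SD was 21.2% of the mean for Per1, 32.8% for Ciart and 26.5% for Dbp. Per2 was at 62.4 ± 7.60, 63.1 ± 10.9, 66.8 ± 12.8 and 58.3 ± 9.92 CPM in the same groups, a genotype difference of -0.09 (interval -0.30 to 0.13). Per3, whose window holds the 2 D-boxes that proteins of the Dbp family bind, was at 76.0 ± 8.33, 74.5 ± 7.34, 71.8 ± 6.93 and 68.1 ± 4.56 CPM. Its genotype difference was -0.05 (interval -0.19 to 0.08), so that a fall of the size seen in Dbp lay outside it.

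The cryptochromes, the proteins that hold the activator pair in its blocked state, did not differ between the genotypes past the threshold. Cry1 was at 18.8 ± 2.65 CPM in hAPOE3 and 19.6 ± 3.44 in hAPOE4 mice among males, and at 16.1 ± 1.66 in hAPOE3 and 16.8 ± 0.655 in hAPOE4 mice among females. In the same order, Cry2 was at 130 ± 11.9, 136 ± 11.4, 121 ± 15.4 and 127 ± 12.9 CPM. The genotype differences were 0.06 for Cry1 (interval -0.11 to 0.23) and 0.06 for Cry2 (-0.08 to 0.20). Females had less Cry1 than males by 0.22 on the log2 scale (difference -0.22, interval -0.40 to -0.05), with adjusted p = 0.359 by edgeR.

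Nr1d1, the heme-binding repressor of Arntl, was at 102, 91.2, 76.9, 83.3 and 64.8 CPM in hAPOE3 males and at 74.5, 69.8, 73.2, 77.5 and 66.4 CPM in hAPOE4 males. It was at 78.8, 75.3, 80.2, 65.3 and 58.3 CPM in hAPOE3 females and at 69.7, 56.6, 52.6, 66.6 and 69.4 CPM in hAPOE4 females. The groups overlapped, with the highest values in hAPOE3 males. The genotype difference was -0.20 (interval -0.37 to -0.03, adjusted p = 0.206 by edgeR) and that of females against males -0.21 (-0.38 to -0.04, adjusted p = 0.379). It passed at -0.27 (adjusted p = 0.0242) once the score of oxidative phosphorylation genes given further on entered the fit, and at -0.25 (adjusted p = 0.0123) with the transcript length score, which was added once the data had been seen.

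Ciart (chromosome 3, 95878503 to 95882251, minus strand), a repressor that acts on the activator pair, was at 17.6, 14.6, 18.9, 32.3 and 24.4 CPM in hAPOE3 males and at 12.4, 14.6, 16.1, 15.6 and 13.8 CPM in hAPOE4 males. It was at 15.2, 12.7, 15.4, 15.6 and 17.6 CPM in hAPOE3 females and at 12.5, 8.32, 13.2, 10.6 and 12.5 CPM in hAPOE4 females. The genotypes overlapped in both sexes, and hAPOE3 males S157 and S158 stood above all other mice. The difference was -0.57 in males (interval -0.93 to -0.22, adjusted p = 0.209) and -0.42 in females (-0.78 to -0.06, adjusted p = 0.387), so that neither sex passed alone. The call over both sexes was lost on leaving out any 1 of 7 mice (hAPOE3 females S147 and S148, hAPOE3 males S157 and S158, hAPOE4 females S165 and S167, hAPOE4 male S174), with differences between -0.49 and -0.40 and adjusted p between 0.0506 and 0.0689. It was also lost with a score of nuclear oxidative phosphorylation genes as a covariate (-0.39, adjusted p = 0.0756).

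Dbp (chromosome 7, 45705088 to 45710203, plus strand), the output gene, was at 83.6, 62.2, 89.4, 103 and 104 CPM in hAPOE3 males and at 58.3, 54.6, 72.7, 59.6 and 66.3 CPM in hAPOE4 males. It was at 64.8, 54.1, 56.7, 74.2 and 70.2 CPM in hAPOE3 females and at 50.4, 47.6, 43.5, 47.6 and 54.9 CPM in hAPOE4 females. In males only S155 of the hAPOE3 mice fell inside the hAPOE4 range, and in females only S145 did, with the 4 other mice of each group above it. The log2 difference was -0.50 in males (interval -0.76 to -0.25, adjusted p = 0.0808) and -0.39 in females (-0.65 to -0.13, adjusted p = 0.198). The difference between these effects was 0.11 (interval -0.25 to 0.48, adjusted p = 1.00). The call over both sexes held on leaving out each of the 20 mice in turn, with differences of -0.50 to -0.41 and adjusted p of at most 0.0200, and was lost without S175 to S178 together.

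Dbp ranked 140 by p among the genes tested for the mean genotype difference. It lies on the same chromosome as Apoe, the replaced gene, at a distance of 26.0 Mb, and Arntl lies 93.5 Mb from Apoe. Whether sequence differences linked to the replaced gene bear on Dbp was not tested. The exons of Dbp overlap those of Sphk2 on the other strand, and whether reads were assigned by strand is not given in the sources used here, so that reads of the pair could be shared. Sphk2, a sphingosine kinase, had a difference of 0.27 in the opposite direction (adjusted p = 0.0646). The exons of Arntl, Cry2 and Nr1d1 also overlap genes of the opposite strand, and Thra, the thyroid hormone receptor gene opposite Nr1d1, had a genotype difference of 0.07 (adjusted p = 0.718).

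**Figure D2:**
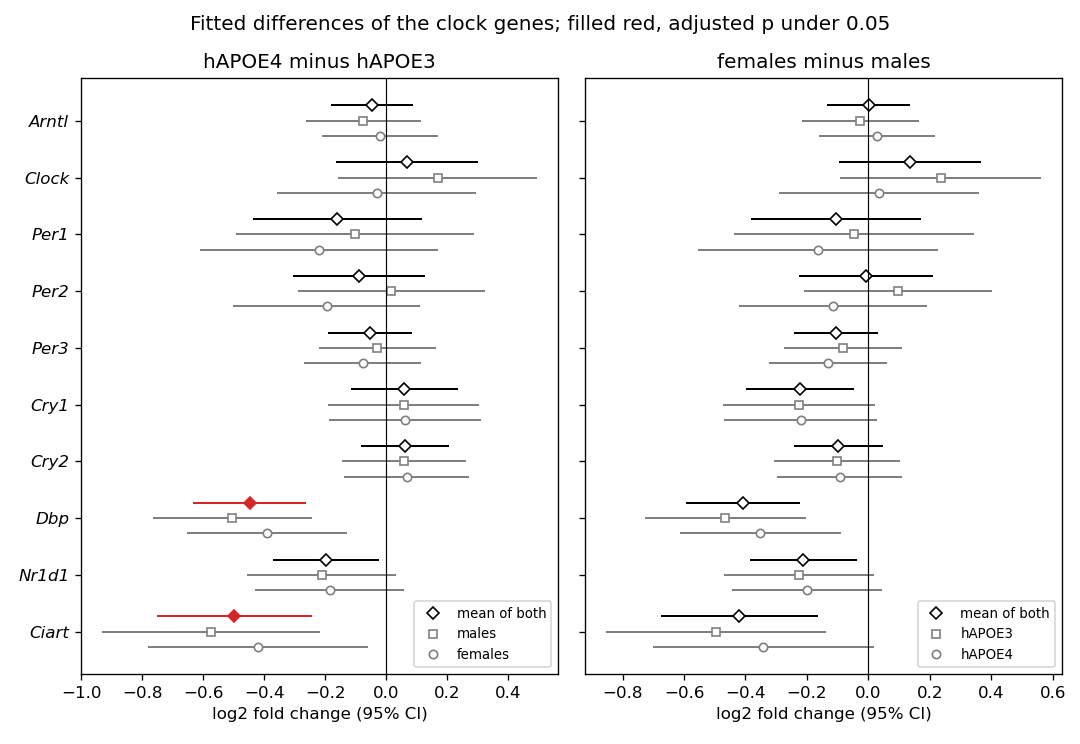
Log2 fold changes of the 10 clock genes with 95% intervals, for hAPOE4 minus hAPOE3 (left) and females minus males (right); diamonds give the mean over both strata, squares and circles each stratum, and filled red the fits with an adjusted p under 0.05. Filled red occurs only for Dbp (-0.45) and Ciart (-0.50) in the mean genotype difference, and both genes lie to the left of 0 in every comparison drawn.

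Within single groups edgeR called 0 of the 10 clock genes. In hAPOE4 against hAPOE3 males 0.621% of all genes were called, and 2 of the 10 clock genes had an unadjusted p under 0.05, against 9.06% of all genes. DESeq2 called 1 of them, Dbp (-0.50, adjusted p = 0.0153), and limma on the deposited normalized counts called 0. In hAPOE4 against hAPOE3 females 0.667% of all genes were called, 2 clock genes had an unadjusted p under 0.05 (10.1% of all genes did), and DESeq2 and limma called 0. For the interaction of sex and APOE 0.184% of all genes were called by edgeR, 0 clock genes had an unadjusted p under 0.05 (2.54% of all genes did), and DESeq2 and limma called 0. No clock gene separated its groups without overlap in any comparison, whereas the share of all genes that did so was 0.290% between the genotypes over both sexes, 1.44% in males, 3.27% in females, 0.0368% between the sexes over both genotypes and 0.723% between the sexes within either genotype.

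Dbp and Ciart also had lower means in females than in males, without passing the threshold in edgeR. Over both genotypes Dbp was lower in females by a log2 difference of -0.41 (SE 0.09, interval -0.59 to -0.23, adjusted p = 0.0776) and Ciart by -0.42 (SE 0.12, interval -0.67 to -0.17, adjusted p = 0.242). edgeR called 0 of the 10 clock genes here and 0.129% of all genes, 4 clock genes had an unadjusted p under 0.05 (Dbp, Ciart, Cry1 and Nr1d1) where 2181 of all 21724 genes did, DESeq2 called 1, Dbp (adjusted p = 0.00471), and limma called 0. Without hAPOE3 male S155 edgeR called Dbp at -0.46 (adjusted p = 0.0122), and without hAPOE4 male S174 at -0.42 (adjusted p = 0.0322). Between the hAPOE3 sexes, where 0.0414% of all genes were called, the difference of Dbp was -0.47 (adjusted p = 0.616), and between the hAPOE4 sexes, where 0.437% were called, it was -0.35 (adjusted p = 0.548). DESeq2, edgeR and limma each called 0 clock genes in those 2 comparisons, with 2 and 1 at an unadjusted p under 0.05 in edgeR, against 5.22% and 5.80% of all genes. All 12 choroid plexus markers had a higher mean in females (median 1.57, 8 at an unadjusted p under 0.05). All 6 thalamic markers tested had a lower mean in females (median -1.24, 6 at an unadjusted p under 0.05), as had all 8 striatal (median -0.52, 1) and all 8 oligodendrocyte markers (median -0.31, 4). edgeR and limma called 0 of these markers, and DESeq2 called 1 choroid plexus and 1 thalamic marker.

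The male comparison depended on single hAPOE3 males. Without S155, which had the least Dbp of its group, edgeR called Dbp at -0.61 (adjusted p = 0.00446) and Ciart at -0.69 (adjusted p = 0.0463) between hAPOE4 and hAPOE3 males. Without S157, which had the most Ciart of all mice, the male difference of Ciart was -0.39 (adjusted p = 0.568). The fit without hAPOE4 males S175 to S178, in which Xist stood apart, held 16 mice. In it the lone hAPOE4 male S174 was taken to vary like the other groups, and over both sexes 69 genes were called in place of 532. Leaving out these mice was decided once the data had been seen.

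Compared per length of exon, Nr1d1, Dbp, Per1 and Cry2 were the highest of the 10 genes and Arntl the lowest. The length was that of all annotated exons of a gene together, which exceeds any single transcript by unlike amounts. It was 7523 bases for Arntl, whose longest transcript has 3995, and 3077 for Nr1d1, whose longest has 2721. The order holds for this length only. Over the 20 mice the levels were 23.6 ± 3.78 CPM per kilobase of exon for Nr1d1, 22.0 ± 5.83 for Dbp, 20.8 ± 4.42 for Per1 and 20.4 ± 2.06 for Cry2. Those 4 lay within their spread of each other. Per2 followed at 10.7 ± 1.73, then Per3 at 7.56 ± 0.736, Clock at 7.08 ± 1.22 and Ciart at 6.94 ± 2.27, the last 3 within their spread, and then Cry1 at 5.33 ± 0.778 and Arntl at 3.35 ± 0.280. In this order Dbp stood first in hAPOE3 males, at 29.5 ± 5.67 against 27.2 ± 4.62 for Nr1d1, and after 3 others in hAPOE4 females, at 16.3 ± 1.41, below Nr1d1 at 20.5 ± 2.56, Cry2 at 20.1 ± 2.03 and Per1 at 18.6 ± 4.52.

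The question whether the groups differed in clock phase has no direct measure here, since hour and group cannot be told apart. As a description, the log2 level of Dbp minus that of Arntl was taken for each mouse, a quantity that follows the hour in a rhythmic tissue because the 2 genes peak at nearly opposite times. Among males it was 1.76 ± 0.40 (SD, n = 5) in hAPOE3 and 1.34 ± 0.21 in hAPOE4 mice, and among females 1.33 ± 0.30 in hAPOE3 and 0.96 ± 0.16 in hAPOE4 mice. The 5 hAPOE4 females held ranks 1, 2, 4, 5 and 9 from the lowest of the 20 mice, and hAPOE3 males S156 to S158 held ranks 18 to 20. This order came from Dbp, since Arntl hardly differed. Among hAPOE3 males, S156 to S158 also had the highest oxidative phosphorylation scores (given further on), at 0.47, 0.54 and 0.47. S154 and S155 had -0.30 and -0.16, although S154 held rank 16. hAPOE3 females S147 and S148, at ranks 15 and 14, had 0.37 and 0.44, while S144 at rank 13 had -0.37. S158 also had the highest striatal (2.52) and thalamic (2.30) marker scores of the 20 mice. Whether the ranks reflect clock phase or such scores was not tested.

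Other outputs and repressors set against Arntl in the same way did not follow Dbp alike. Ciart minus Arntl was also highest in hAPOE3 males (-0.31 ± 0.51) and lowest in hAPOE4 females (-1.14 ± 0.32), with hAPOE4 males at -0.76 ± 0.25 and hAPOE3 females at -0.73 ± 0.28 between them. Nr1d1 minus Arntl was 1.69 ± 0.11 and 1.56 ± 0.19 in hAPOE3 and hAPOE4 males and 1.49 ± 0.22 and 1.32 ± 0.25 in hAPOE3 and hAPOE4 females. Per2 minus Arntl was 1.27 ± 0.21 and 1.35 ± 0.31 in males and 1.38 ± 0.26 and 1.21 ± 0.32 in females, a difference between means smaller than the SD of each group. For Per3 minus Arntl the mice ran from 1.38 to 1.87 in hAPOE3 and 1.23 to 1.87 in hAPOE4 males, and from 1.38 to 1.70 in hAPOE3 and 1.28 to 1.54 in hAPOE4 females. All 4 groups overlapped on that measure.

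**Figure D3:**
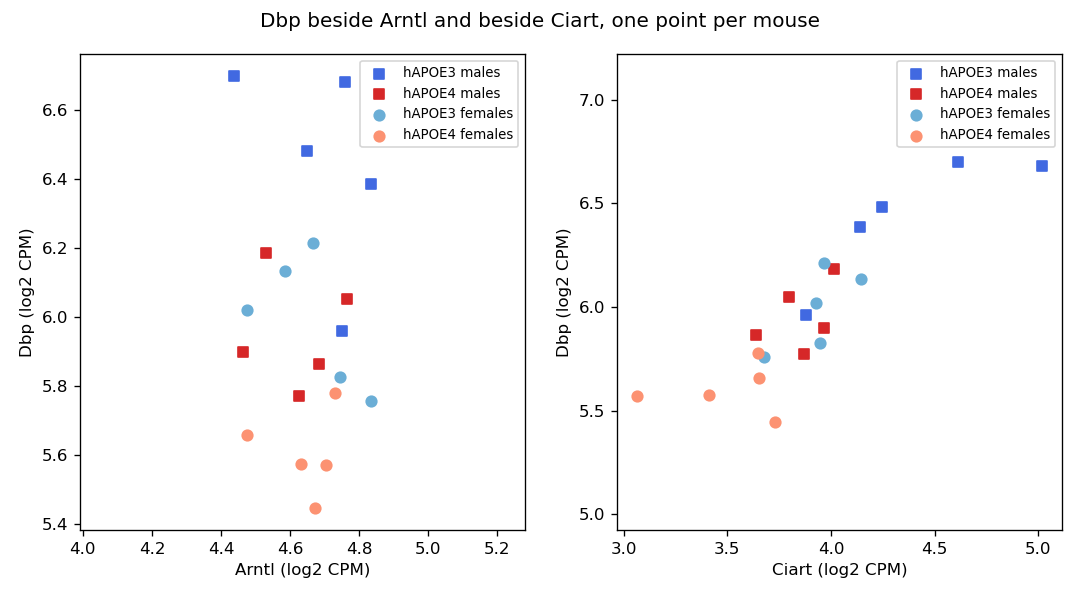
Log2 CPM of Dbp against Arntl (left) and against Ciart (right), with 1 point per mouse and equal units on both axes; squares are males, circles females. The points spread along Dbp with little spread along Arntl. Dbp and Ciart are both highest in hAPOE3 males S157 and S158 and low together in hAPOE4 females, while hAPOE3 male S155 lies among mice of other groups.

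Whether any gene followed Arntl among mice of the same group was tested with its log2 CPM as a covariate beside the 4 group means. edgeR called 0 of the 9 other clock genes and 0 of 21723 genes (0% of genes called), with 1772 genes and 0 of the 9 clock genes at an unadjusted p under 0.05, and DESeq2 and limma called 0 clock genes. The slope of Dbp was -0.57 log2 units per log2 unit of Arntl (SE 0.36, adjusted p = 0.691) and that of Ciart -0.72 (SE 0.51, adjusted p = 0.723). Those of Nr1d1, Cry2 and Clock were 0.36 (SE 0.35), 0.50 (SE 0.28) and 0.30 (SE 0.48). No gene could therefore be named as most like Arntl over the 20 mice. The SD of Arntl within groups was 0.10 to 0.15 on the log2 scale, a narrow range for such a fit.

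With Dbp in the place of Arntl, edgeR called 21.5% of all genes, and 2 of the 9 other clock genes were among them. Ciart rose by 0.91 log2 units per log2 unit of Dbp within groups (SE 0.26, adjusted p = 0.0203), and Clock fell by 0.85 (slope -0.85, SE 0.23, adjusted p = 0.0160). The 8 other clock genes were put in its place once the data had been seen. With Per1, Per2, Per3, Cry1 or Ciart as the covariate edgeR, the only tool run for these, called 0 clock genes, and of all genes 1 (0.00460%) with Per1 and with Cry1 and 0 with Per2, Per3 and Ciart. Nr1d1 gave 20.2% of all genes and 3 clock genes, Clock with a slope of 1.03 (SE 0.23), Per1 with 1.14 (SE 0.29) and Cry2 with 0.62 (SE 0.14). Cry2 gave 0.847% of all genes and 2 clock genes, Per1 with 1.77 (SE 0.30, adjusted p = 0.0280) and Nr1d1 with 1.02 (SE 0.22, adjusted p = 0.0422). Clock gave 33.3% of all genes and 2 clock genes, Nr1d1 with 0.52 (SE 0.12, adjusted p = 0.00298) and Dbp with -0.51 (SE 0.14, adjusted p = 0.0103). When the oxidative phosphorylation score was added, the share of genes that followed Dbp was 4.76%, with 0.0414% for Nr1d1, 0.0276% for Cry2 and 20.3% for Clock, and none of these slopes between clock genes passed. The slopes themselves did not all shrink. That of Per1 on Cry2 was then 1.83 (SE 0.35), that of Per1 on Nr1d1 was 1.46 (SE 0.43) and that of Cry2 on Nr1d1 was 0.72 (SE 0.20). Ciart on Dbp was at 0.70 (SE 0.31), Clock on Dbp at -0.50 (SE 0.25), Clock on Nr1d1 at 0.66 (SE 0.34), Nr1d1 on Cry2 at 0.71 (SE 0.21), Nr1d1 on Clock at 0.29 (SE 0.16) and Dbp on Clock at -0.41 (SE 0.20).

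A difference that runs through whole libraries moved with these genes. A transcript length score was taken from 1864 genes with short transcripts (under 1500 bases) and 3717 with long ones (over 5000 bases). It is the mean log2 CPM of the short set minus that of the long set, without the 10 clock genes. Within groups 35.0% of all genes followed it. The genes that define the score were among those tested, so that this share was partly fixed in advance. Per SD of the score Clock fell by 0.23 on the log2 scale (adjusted p = 5.78e-06), Nr1d1 by 0.15 (adjusted p = 0.000509), Per1 by 0.17 (adjusted p = 0.0489) and Cry2 by 0.09 (adjusted p = 0.0307), while Dbp rose by 0.15 (adjusted p = 0.00230). Per2 (-0.12 per SD), Per3 (-0.06), Cry1 (0.02), Arntl (-0.03) and Ciart (0.15) did not pass. The longest annotated transcript has 9744 bases for Clock, 5999 for Per3, 5833 for Per2, 4671 for Per1 and 3995 for Arntl. It has 3976 for Cry2, 3026 for Cry1, 2721 for Nr1d1, 1939 for Ciart and 1837 for Dbp. Whether the slopes of the 10 genes follow transcript length was not tested. Among males the score was 0.16 ± 0.36 in hAPOE3 and -0.05 ± 0.18 in hAPOE4 mice, and among females -0.04 ± 0.38 in hAPOE3 and -0.07 ± 0.09 in hAPOE4 mice. With it as a covariate, the genotype difference over both sexes was still called for Dbp (-0.37) and Ciart, and Nr1d1 was called in addition.

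The score of 22 nuclear oxidative phosphorylation genes ran almost in parallel with it (r = 0.917 over the 20 mice, which share both scores' libraries). All 22 had a lower mean in hAPOE4 mice (median -0.21, 0 called by edgeR and 1 by DESeq2, 6 at an unadjusted p under 0.05 where 17.9% of all genes were), and with the score as a covariate Dbp was still called over both sexes (-0.37). The score was followed by 26.6% of all genes and by Clock (-0.19 per SD, adjusted p = 0.00466), Nr1d1 (-0.14, adjusted p = 0.00341) and Dbp (0.11, adjusted p = 0.0484). Dbp also rose with a score of 8 oligodendrocyte markers, by 0.16 per SD (adjusted p = 0.00562, 18.8% of all genes). The summed oligodendrocyte markers ran from 4650 to 13424 CPM in hAPOE3 and 4672 to 9698 in hAPOE4 males, and from 4217 to 6039 in hAPOE3 and 4889 to 5507 in hAPOE4 females. With that score in the fit, another choice made once the data had been seen, Dbp was called in males alone (-0.42, adjusted p = 0.0285) and in females alone (-0.39, adjusted p = 0.0462). Nr1d1 fell with the score of striatal neuron markers, by 0.12 per SD (adjusted p = 0.0437, 14.0% of all genes), and all 8 of those markers had a lower mean in hAPOE4 mice (median -0.61, 0 called by edgeR, DESeq2 or limma, 2 at an unadjusted p under 0.05 in edgeR). No clock gene passed against the choroid plexus score (7.77% of all genes, with 3 clock genes at an unadjusted p under 0.05) or against the thalamic score (20.4% of all genes, 3 at an unadjusted p under 0.05), the only tool run for these slopes being edgeR.

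**Figure D4:**
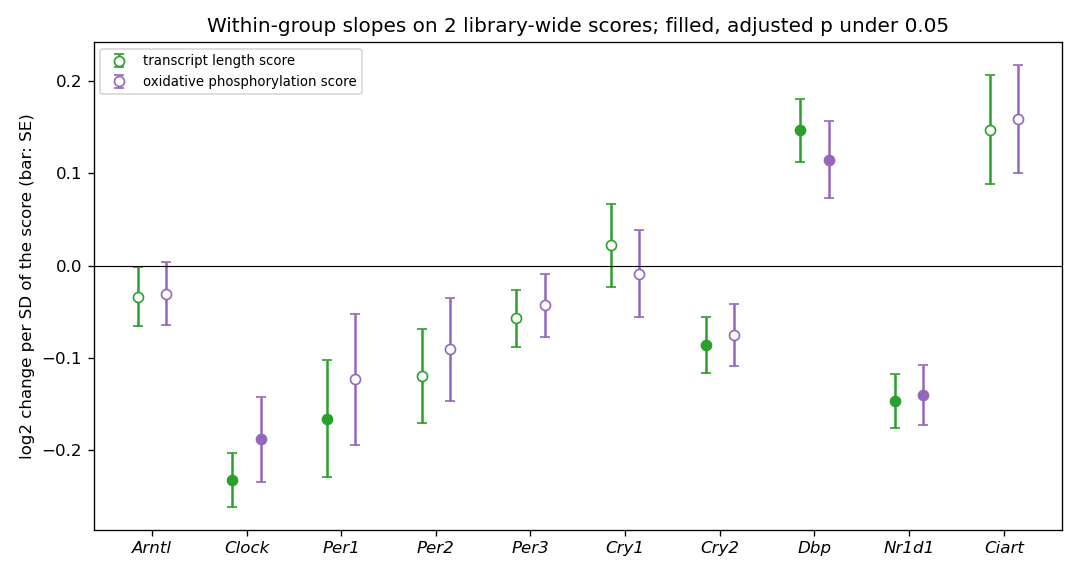
Log2 change of each clock gene per SD of the transcript length score (green) and of the oxidative phosphorylation score (purple) within groups, with SE as bars and filled points for an adjusted p under 0.05. Clock and Nr1d1 lie below 0 and Dbp above 0 on both scores, whereas Arntl, at -0.03 on each, is near 0.

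The other genes of the clock were taken from lists, and for the mean genotype difference few of them passed. Of all genes 2.45% were called there and 17.9% had an unadjusted p under 0.05, the shares against which the counts of these lists are read. Of 5 other activators (Npas2, which can stand in for Clock, Arntl2 and the 3 ROR receptors) edgeR, DESeq2 and limma called 0, with 0 at an unadjusted p under 0.05 in edgeR and a median of 0.02 on the log2 scale against 0.00 over all genes. Of 6 other outputs, among them Tef, a relative of Dbp, edgeR, DESeq2 and limma called 0, and 1 had an unadjusted p under 0.05, the ubiquitin protease gene Usp2 (-0.18, adjusted p = 0.163). Tef was at 352 ± 15.4 CPM in hAPOE3 and 346 ± 14.8 in hAPOE4 males, and at 339 ± 22.7 in hAPOE3 and 336 ± 24.2 in hAPOE4 females, a genotype difference of -0.02. Of 6 other repressors edgeR and DESeq2 called 1, Bhlhe41, and limma 0, with 3 at an unadjusted p under 0.05 in edgeR and a median of 0.04. Nr1d2, the paralog of Nr1d1, differed by -0.23 (adjusted p = 0.140).

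Bhlhe41, also called DEC2, a repressor that competes for E-boxes, was raised in 4 hAPOE4 males. It was at 945, 567, 672 and 452 CPM in S175 to S178 and at 54.9 CPM in S174 of the same group. The 15 other mice lay between 49.2 and 72.3 CPM, so that S174 was among them. The male difference was 3.07 on the log2 scale, that over both sexes 1.52 (adjusted p = 0.00375 by edgeR, 1.11 with adjusted p = 0.0506 by limma), and without S175 to S178 it was -0.12 over both sexes (adjusted p = 0.565). AU022751, chosen after its values were seen, was at 4.89 CPM or more in the same 4 mice, 0.287 in S174 and at most 0.302 in all others, and Xist stood apart in the same 4 mice. Its paralog Bhlhe40 had no such pattern, with group means of 107 to 111 CPM.

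Among 9 kinases and ubiquitin ligases that act on the clock proteins, 2 rose in hAPOE4 mice (2.45% of all genes were called) and 7 did not pass, with 4 at an unadjusted p under 0.05 (17.9% of all genes) and a median of 0.10 over the list. These were the paralogs Btrc and Fbxw11, whose products mark the PER proteins for destruction among many other targets. Btrc was at 53.4 to 75.5 CPM in hAPOE3 and 67.8 to 90.9 in hAPOE4 males, and at 52.7 to 76.1 in hAPOE3 and 79.5 to 88.0 in hAPOE4 females, a difference of 0.36 over both sexes (SE 0.08, adjusted p = 0.0156). Fbxw11 was at 110 ± 18.9 CPM in hAPOE3 males, 138 CPM on average in hAPOE4 males (lowest 121), and 116 ± 15.7 and 141 ± 11.6 CPM in hAPOE3 and hAPOE4 females, a difference of 0.31 (SE 0.08, adjusted p = 0.0453). The call of Btrc held on leaving out each of the 20 mice, and that of Fbxw11 in 5 of 20, with adjusted p up to 0.105. For Btrc the genotypes overlapped in males and not in females, where 3.27% of all genes did not overlap. Both were uncalled without S175 to S178, at 0.44 (adjusted p = 0.135) and 0.39 (adjusted p = 0.239).

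Genes known to move with neuronal activity, stress hormone and temperature, each of which can also shift Per1 or Per2, were read from 3 further lists. Of 10 immediate early genes edgeR, DESeq2 and limma called 0, with 1 at an unadjusted p under 0.05 in edgeR, and all 10 had a lower mean in hAPOE4 mice, with a median of -0.30. Of 9 glucocorticoid response genes 1 rose, Pdk4, a kinase that restrains pyruvate oxidation, by 0.88 (SE 0.18, adjusted p = 0.0124, and 0.81 with adjusted p = 0.176 without S175 to S178). Of 8 temperature-dependent genes 1 was called by edgeR, the heat shock gene Hspa1b, higher by 0.72 (SE 0.19, adjusted p = 0.0431). That call was lost in 14 of 20 fits that left out 1 mouse. DESeq2 also called Hspa1b, whereas limma did not (0.69, adjusted p = 0.0548). Without S175 to S178, which leaves S174 as the lone hAPOE4 male, the difference was 0.77. At an unadjusted p under 0.05 in edgeR were 3 of the 9 glucocorticoid and 4 of the 8 temperature-dependent genes, against 17.9% of all genes. Per1 and Per2 did not pass in any comparison, and whether these lists bear on the clock genes was not tested.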

How the data were processed

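Hippocampal RNA of 20 mice was measured as polyA paired-end libraries. The authors quantified them against mouse cDNA (Salmon 0.91) and used tximport for gene-level totals; the deposited estimated counts are whole numbers, without normalization. The authors also deposited normalized counts made with DESeq2, a signal used here only as an alternative. All columns were matched to a mouse by name (0 left out). In each of 190 pairs of libraries counts differed by more than sampling noise (lowest chi-square over its degrees of freedom, 9.16), and the mice are separate animals.

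The tests used edgeR 4.0.16 under R 4.3.3 (filterByExpr by group, TMM, glmQLFit, glmQLFTest, 1 mean per group, 7 comparisons, Benjamini-Hochberg over all genes tested, threshold 0.05). Slopes used the covariate beside the group means, with Arntl and then each other clock gene. Log2 CPM had a prior count of 2, and scores are means of log2 CPM centred per gene. DESeq2 1.42.0 (Wald test), limma 3.58.1 on log2 of the normalized counts plus 1, other normalization, filtering, covariates and each mouse left out were alternatives. Gene positions and lengths came from GENCODE on GRCm38. The scripts were tested on simulated counts. There the covariate gene of the slope fit had a wider spread and less noise than Arntl. That test therefore does not show what the slope fit on Arntl could detect. Genes named beside the 10 were the listed ones past the threshold in a comparison; Nr1d2, Usp2, Tef, Bhlhe40, AU022751, Sphk2 and Thra were chosen after their values were seen, and others only as positions or checks. The members and lists were chosen with earlier results of these data known.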

Additional observations from a re-analysis of the deposited data

Results flagged for a closer look

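Of the 10 clock genes and Bhlhe41, Btrc, Fbxw11, Pdk4 and Hspa1b, only Bhlhe41 had a genotype difference that differed between the sexes by test. AU022751 was not among the genes examined in this way. The difference in females minus that in males was -3.11 on the log2 scale (edgeR's quasi-likelihood test of the interaction, adjusted p = 0.0117), from 4 of the 5 hAPOE4 males, and it was 0.18 without S175 to S178. By limma it was -2.32 (adjusted p = 0.366). Among 60 combinations of a named gene and a group of 5 mice, Dixon's test marked 1 value as far from the others. Bhlhe41 in hAPOE4 female S166, at 49.2 CPM, lay below the other 4, which ran from 54.3 to 56.1 CPM. Chance marks about 1 in 20 such groups, and 0 of the 40 combinations with a clock gene were marked.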

How the results depend on the processing

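Dbp was called lower in hAPOE4 mice over both sexes in 30 of 31 alternatives (log2 -0.50 to -0.37) and Ciart in 22 of 31 (-0.60 to -0.39). The number of clock genes called there was 2, 0 without S175 to S178 and 1 to 2 on leaving out 1 mouse. In males it was 0, 1 with the choroid, thalamic or oligodendrocyte score or DESeq2, and 0 to 2 on leaving out 1 mouse. In females it was 0, and 1 with the oligodendrocyte or length score. Between the sexes over both genotypes it was 0, 1 with the choroid or length score or DESeq2, and 0 to 1 on leaving out 1 mouse. In the slope fit it was 0 with Arntl, 2 with Dbp, Clock or Cry2 3 with Nr1d1 and 0 with Per1, Per2, Per3, Cry1 or Ciart as covariate gene; with Dbp the slopes of Clock (-0.85) and Ciart (0.91) had the opposite sign to those with Arntl. Without S175 to S178 Bhlhe41 turned to -0.21 in males, -0.12 over both sexes and 0.18 in the interaction. The causes were not tested. Of 3666 pairs of a gene result and an alternative, 3350 kept sign and side of the threshold, 234 changed sign with neither value past it, 51 lost and 26 gained a call, and 5 reversed.

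The number of all genes called moved more. Over both sexes it was 532, but 803, 870 and 1086 with the oligodendrocyte score, the length score and DESeq2, 69 without S175 to S178 and 283 to 792 on leaving out 1 mouse. In males it was 135, but 45 with only the 2 groups compared, 221 without the filter, 232 with DESeq2, 5 without S175 to S178 and 99 to 288 on leaving out 1 mouse. In females it was 0.667% of all genes, but 272, 379 and 345 genes with the oxidative phosphorylation score, the length score and DESeq2, and 74 to 257 on leaving out 1 mouse. Between the sexes over both genotypes it was 28, but 93, 101 and 161 with the choroid score, the oligodendrocyte score and DESeq2, 13 with the oxidative phosphorylation score, 9 with limma, 8 without S175 to S178, and from 14 to more than the DESeq2 count on leaving out 1 mouse. Between hAPOE3 sexes it was 9, but 14 with the choroid score and 23 with DESeq2; between hAPOE4 sexes 95, but 189 without the filter, 32 with only the 2 groups compared, 47 with limma, more than 1.5 times the number with DESeq2, 6 without S175 to S178 and 70 to 275 on leaving out 1 mouse; for the interaction 40, but 65 with DESeq2, 16 with limma, 0 without S175 to S178 (edgeR) and 30 to 118 on leaving out 1 mouse. In the slope fit on Arntl it was 0, and 44 without S175 to S178. No paired analysis was possible because the labels give no replicate numbers, and the numbers used only name mice.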
